A study of Ovis aries with 15 samples.

Results

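Acute phase proteins are plasma proteins made mainly by hepatocytes whose blood levels move in inflammation. The genes described here are CRP, ORM1, HP, HPX, LBP, AHSG and the inter-alpha-inhibitor heavy chain genes ITIH1, ITIH2, ITIH3 and ITIH4, chosen by name as acute phase and inter-alpha-inhibitor genes. Of these 10 genes, 9 had a row among the 31411 genes of the table and all 9 passed the filter on low counts. HP, the gene of haptoglobin, is not analysed here, because no row carries that name. The samples were 15 pieces of fetal sheep liver (Ovis aries), 4 from gestational day (GD) 100, 5 from GD124 and 6 from GD144, the last being close to birth. The labels give the species, the tissue and the stage of each sample, and no breed, sex or treatment. Poly(A) RNA was sequenced, and levels are given in CPM, the counts of a gene scaled to a fixed library size, after scaling of the libraries by the trimmed mean of M values (TMM).

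In inflammation, interleukin-6 and its relatives act on the hepatocyte through the shared receptor chain gp130 and the transcription factor STAT3, while interleukin-1 acts through NF-kappa-B and C/EBP factors, and glucocorticoids add to both. C-reactive protein (CRP), alpha-1-acid glycoprotein (ORM1), lipopolysaccharide-binding protein (LBP), haptoglobin and hemopexin (HPX) are known as proteins that rise in this response, to a degree that differs between species. Fetuin-A (AHSG), a carrier of calcium phosphate, is known in many mammals as one that falls, and in ruminants it is a leading protein of fetal plasma. The inter-alpha-inhibitor heavy chains are bound through a sugar chain to bikunin, the product of AMBP, and can be passed on to hyaluronan. ITIH4 differs from ITIH1, ITIH2 and ITIH3 in that it circulates without bikunin.

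Library totals ran from 24215612 to 38247295 counts, and 3 counts, used here as the floor, equalled 0.0796 to 0.128 CPM. Floors cover counting error only. Fractional counts were found in 10.6 to 10.8% of genes in replicates 2 to 4 of GD100, against 5.09 to 6.2% in the other 12 libraries. Whether each library is from its own fetus is not stated, and p-values therefore speak only of the spread among these samples. The letters in the sample codes also change with the stage, and a cohort effect and the stage cannot be told apart. The tissue was checked against 9 hepatocyte markers (ALB, APOB, APOA2, TTR, SERPINC1, F2, FGB, TAT and CPS1), all of which had counts in every library. Their summed level ranged over 23175 to 76630 CPM in GD100 libraries, 95999 to 111685 CPM in those of GD124 and 71412 to 109598 CPM in those of GD144. In such bulk samples fewer cells of a type and less RNA per cell cannot be told apart.

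Most of the 9 genes were higher later in gestation. Between GD124 and GD100, 6 of them were called higher by edgeR's quasi-likelihood test at an adjusted p under 0.05 and 0 lower, where 34% of the 16977 tested genes were called, 16.6% higher. Between GD144 and GD124, 5 were called higher, and 0 lower, where 27.5% of all tested genes were called, 12.1% higher. Over the whole span from GD100 to GD144, 7 were called higher and 0 lower, where 55% of all tested genes were called, 27.1% higher. The median log2 fold change of the 9 genes was 0.94, 0.53 and 1.40 in these comparisons, against 0.02, -0.01 and 0.03 over all tested genes. The 3 comparisons share libraries and are not independent of each other. Libraries of GD124 lay entirely above those of GD100 for 5 of the 9 genes and below for 0, where 24.2% of all tested genes had no overlap, 11.7% with GD124 higher. GD144 lay entirely above GD124 for 4 (7.81% of all tested genes) and entirely below it for 2 (11%), where 18.8% had no overlap. GD144 lay entirely above GD100 for 4, where 40% had no overlap, 19.2% with GD144 higher. The log2 change of the later interval minus that of the earlier one was called for 2 of the 9, AHSG and ITIH2, both negative, where 5.9% of all tested genes were called, 3.75% lower. Scaling by total counts alone changed the split of calls over all genes, to 1805 higher and 4055 lower (2825 and 2949 with TMM) between GD124 and GD100, to 2520 and 2138 (2046 and 2617) between GD144 and GD124, and to 789 and 388 (365 and 637) for the interval difference. Over the 9 genes it left 6 and 5 calls in the 2 intervals, all higher, and 3 for the interval difference, of which 2 were negative.

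**Figure D1:**
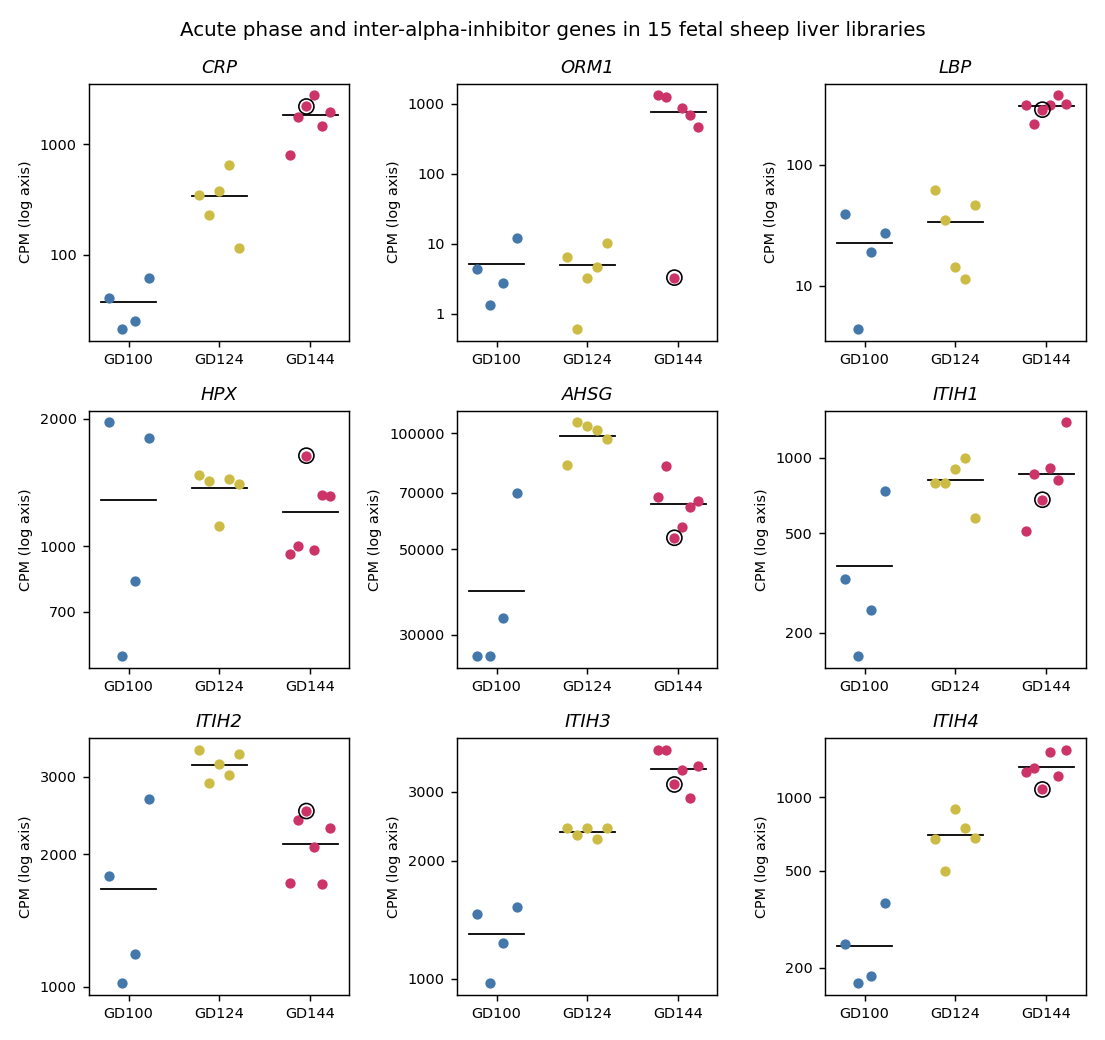
Level of each gene in every library (CPM, log axis), by stage. Points are libraries, bars are stage means and the ring marks GD144 replicate 3. CRP was higher at each later stage without overlap, LBP was high in all 6 GD144 libraries, and ORM1 was high in the GD144 libraries other than replicate 3.

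CRP, a pentraxin that binds phosphocholine on microbes and damaged cells, was higher at each later stage. Its level was 41.1, 21.4, 25.1 and 61.8 CPM in GD100 replicates 1 to 4. At GD124 it was 345, 231, 375, 648 and 115 CPM in replicates 1 to 5. At GD144 the lowest library held 799 CPM, the median was 1865 CPM and the highest was 2758 CPM. The 3 stages did not overlap. GD124 exceeded GD100 by log2 3.20 ± 0.49 (SE) and GD144 exceeded GD124 by log2 2.41 ± 0.43, with edgeR adjusted p of 0.000373 and 0.000649. This is a 48.8-fold higher level at GD144 than at GD100 (log2 5.61 ± 0.55, edgeR adjusted p = 6.96e-07). Both intervals moved CRP upwards, and their difference did not pass the test (log2 -0.79 ± 0.71, edgeR adjusted p = 0.54).

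LBP, which carries bacterial lipopolysaccharide to CD14, was higher at GD144 alone. GD100 libraries held 38.9, 4.43, 19.1 and 27.4 CPM in replicates 1 to 4. GD124 libraries held 61.4, 34.7, 14.4, 11.5 and 46.5 CPM in replicates 1 to 5. At GD144 the levels were 215 CPM at the lowest, 310.4 CPM at the median and 372 CPM at the highest. The 2 earlier stages overlapped widely (log2 0.58 ± 0.53 for GD124 against GD100, edgeR adjusted p = 0.419), whereas all 6 GD144 libraries lay above every earlier one. GD144 exceeded GD124 by log2 3.16 ± 0.52, an 8.94-fold higher level (edgeR adjusted p = 0.000517). Within GD124 the order of libraries by LBP was not that by CRP: replicate 4 had the highest CRP and the lowest LBP of that stage. The change of LBP in the later interval did not differ past the threshold from that in the earlier one (log2 difference 2.58 ± 0.91, edgeR adjusted p = 0.107).

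ORM1, the gene of alpha-1-acid glycoprotein, a lipocalin that binds basic drugs and steroids, was low in both earlier stages and high in 5 of the 6 GD144 libraries. It stood at 4.42, 1.33, 2.73 and 11.9 CPM in GD100 replicates 1 to 4. GD124 replicates 1 to 5 held 6.41, 0.612, 3.22, 4.63 and 10.1 CPM. GD144 replicates 1 to 6 held 1310.0, 1228, 3.29, 873, 697 and 469 CPM. Replicate 3 lay inside the range of the earlier stages, so the stages overlapped through that library. The log2 fold change of GD144 against GD124 was 7.26 ± 1.24 (edgeR adjusted p = 0.00071), while GD124 and GD100 did not differ past the threshold (log2 -0.03 ± 1.04, edgeR adjusted p = 0.987). The difference between both intervals was log2 7.29 ± 2.03 (edgeR adjusted p = 0.0504), and it was 7.55 with an edgeR adjusted p of 0.0047 without GD144 replicate 3. Over the fits without any 1 library the adjusted p ran from 0.0047 to 0.111, and over all 25 alternatives from 0.000529 to 0.151.

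GD144 replicate 3 shared the late level of CRP and LBP. It held 2186 CPM of CRP and 284 CPM of LBP, both within the range of the other 5 GD144 libraries. ITIH3 and ITIH1 were within that range as well. ITIH4 was 1079 CPM in it, against 1226 to 1572 CPM in the other 5, and AHSG was 53514 CPM, against 57023 to 82348 CPM. HPX (1638 CPM, against 957 to 1321 CPM) and ITIH2 (2508 CPM, against 1710 to 2397 CPM) were above the other 5. For ORM1 the lowest of the other 5 libraries was 143 times the level of replicate 3. Of 1563 tested genes whose other 5 GD144 libraries all exceeded every GD124 library, 237 (15.2%) lay at or below the highest GD124 library in replicate 3. With the other GD144 libraries singled out in the same way, this share was 6.55 to 20.8%. Among those 1563 genes, ORM1 and LOC101120904 were the 2 whose level in replicate 3 was over 10 times below the lowest of the other 5. LOC101120904 had 0 CPM in replicate 3 and 0.346 CPM in the lowest of the other 5, so it was scarce throughout. The same count of genes was 6, 0, 0, 3 and 1 when GD144 replicates 1, 2, 4, 5 and 6 were singled out in turn. The limit of 10 times was chosen after the values were seen. The 9 erythroid markers of the list fixed for this tissue summed to 674 CPM in replicate 3 and to 6.91 to 81.1 CPM in the other GD144 libraries. Their part in the ORM1 result was not tested.

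**Figure D2:**
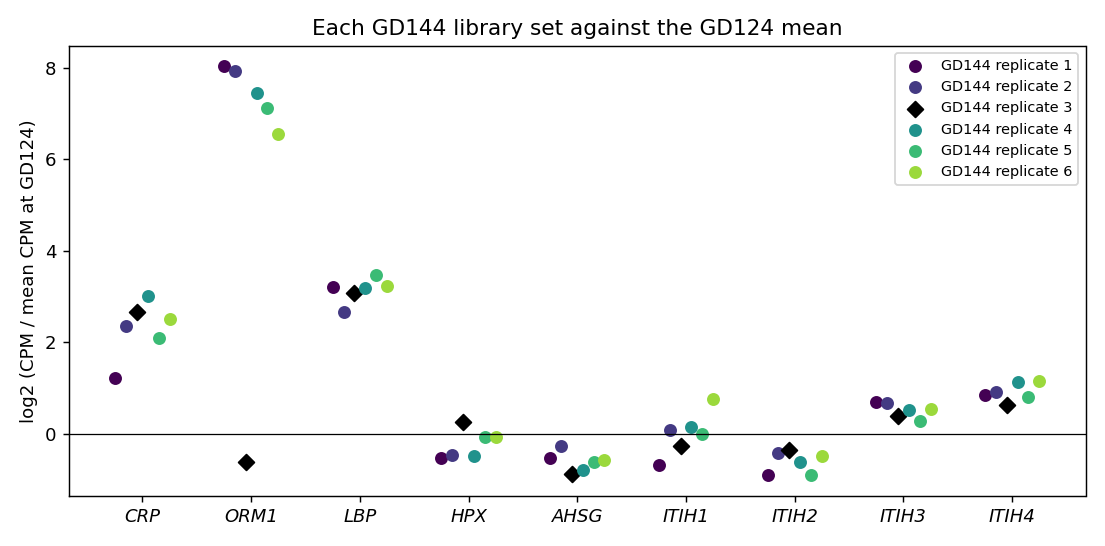
Level of each gene in each GD144 library relative to the mean of the GD124 libraries (log2 of the CPM ratio). The black diamond is replicate 3, which sits with the other libraries for CRP and LBP and far below them for ORM1.

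HPX, which binds free haem, showed no change of stage that passed the test. Its level was 1962, 550.1, 828 and 1806 CPM in GD100 replicates 1 to 4. GD124 libraries held 1473, 1425, 1117, 1446 and 1402 CPM in replicates 1 to 5. GD144 libraries ran from 957 to 1638 CPM with a median of 1158 CPM. All stages overlapped, and the GD100 libraries spanned a 3.57-fold range, against 1.32-fold at GD124 and 1.71-fold at GD144. The log2 fold change of GD124 against GD100 was 0.09 ± 0.30, and that of GD144 against GD124 was -0.19 ± 0.27 (edgeR adjusted p = 0.844 and 0.651). HPX overlaps LOC105602268 in the annotation, whose own level was at most 68.4 CPM in any library.

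AHSG, the gene of fetuin-A, took a large part of all reads. Its share of all counts lay between 2.7 and 7.02% in GD100 libraries, between 7.74 and 10.3% in GD124 libraries and between 5.27 and 8.19% in GD144 libraries. GD100 replicates 1 to 4 stood at 26408, 26432, 33078 and 69776 CPM. GD124 replicates 1 to 5 stood at 82508, 106555, 104510.1, 101952 and 96260.2 CPM. GD144 libraries ran from 53514 to 82348 CPM with a median of 65583 CPM. AHSG was thus highest at GD124, whose 5 libraries lay above every library of both other stages. GD124 exceeded GD100 by log2 1.34 ± 0.31 (edgeR adjusted p = 0.00426). GD144 was lower than GD124 by a value that did not pass the test (log2 -0.59 ± 0.27, edgeR adjusted p = 0.12), although the libraries of both stages did not overlap. This fall passed in 4 of 26 alternative fits. Among these were the fit of GD144 and GD124 libraries only (edgeR adjusted p = 0.007) and DESeq2 (DESeq2 adjusted p = 0.0348). GD144 exceeded GD100 by log2 0.75 ± 0.30 (edgeR adjusted p = 0.0427), a call that was lost in 15 of the 26 alternative fits and reversed in 1, among the lost ones those without any of GD100 replicates 1 to 3, at adjusted p of 0.114, 0.0909 and 0.0962. The difference between the intervals was -1.93 ± 0.48 on the log2 scale (edgeR adjusted p = 0.0299). This last call was lost in 9 of 25 alternative fits, with adjusted p from 0.000287 to 0.181 over all of them.

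FETUB, the fetuin-B gene next to AHSG in the annotation, was also highest at GD124. Its means were 2790.0 ± 632 CPM at GD100 (SD, n = 4), 5010.4 ± 581 CPM at GD124 (SD, n = 5) and 1300.1 ± 220 CPM at GD144 (SD, n = 6). The log2 fold change of GD144 against GD124 was -1.95 ± 0.19 (edgeR adjusted p = 4.68e-06). AHSG overlaps LOC105602783 in the annotation, whose level was at most 5.12 CPM.

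The heavy chain genes of inter-alpha-inhibitor did not move alike. ITIH3 and ITIH4 were higher at each later stage, ITIH1 was higher at GD124 than at GD100 and did not differ past the threshold after that, and ITIH2 was highest at GD124. In the annotation ITIH4, ITIH3 and ITIH1 follow each other as neighbours, while ITIH2 lies elsewhere beside ITIH5. ITIH1 and ITIH3 overlap NEK4, whose level was at most 58.1 CPM in any library.

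ITIH4, the heavy chain known as an acute phase protein in cattle and pigs, stood at 251, 173, 185 and 370 CPM in GD100 replicates 1 to 4. GD124 replicates 1 to 5 held 676, 499.8, 893, 747 and 683 CPM. GD144 libraries held 1079 to 1572 CPM with a median of 1298 CPM. No stage overlapped another. GD124 exceeded GD100 by log2 1.51 ± 0.23, and GD144 exceeded GD124 by log2 0.93 ± 0.21 (edgeR adjusted p = 0.000354 and 0.00321).

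ITIH3 had the least spread of the 9 genes. It stood at 1459, 975, 1235 and 1522 CPM in GD100 replicates 1 to 4 and at 2422, 2319, 2427, 2278 and 2421 CPM in GD124 replicates 1 to 5. GD144 libraries ran from 2894 to 3836 CPM with a median of 3440 CPM. The stages did not overlap. GD124 exceeded GD100 by log2 0.87 ± 0.17, and GD144 exceeded GD124 by log2 0.53 ± 0.16 (edgeR adjusted p = 0.0016 and 0.0182).

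ITIH1 stood at 326, 161, 247 and 737 CPM in GD100 replicates 1 to 4. GD124 replicates 1 to 5 held 793, 794, 899.5, 997 and 575 CPM. GD144 libraries ran from 508 to 1381 CPM with a median of 837 CPM. GD100 replicate 4 lay inside the GD124 range and the other 3 GD100 libraries lay below it. GD124 exceeded GD100 by log2 1.14 ± 0.37 (edgeR adjusted p = 0.0254), and GD144 and GD124 did not differ past the threshold (log2 0.08 ± 0.32, edgeR adjusted p = 0.887). The call of GD124 against GD100 was lost without GD100 replicate 1, 2 or 3 or GD124 replicate 4, at adjusted p of 0.0576, 0.0752, 0.088 and 0.0536.

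ITIH2 stood at 1786, 1019.8, 1189 and 2665 CPM in GD100 replicates 1 to 4. GD124 replicates 1 to 5 held 3456, 2907, 3199.6, 3030 and 3376 CPM. GD144 libraries ran from 1710 to 2508 CPM with a median of 2182 CPM. All GD124 libraries lay above those of both other stages. GD124 exceeded GD100 by log2 0.94 ± 0.25 (edgeR adjusted p = 0.00933). GD144 was below GD124 by a value just short of the threshold (log2 -0.59 ± 0.22, edgeR adjusted p = 0.0556). This fall passed in 7 of 26 alternative fits. Among these were the fit of GD144 and GD124 libraries only (edgeR adjusted p = 0.00379) and DESeq2 (DESeq2 adjusted p = 0.02). The difference between the intervals was -1.53 ± 0.39 on the log2 scale (edgeR adjusted p = 0.0326), and this call was lost in 11 of 25 alternative fits, with adjusted p from 0.00264 to 0.522 over all of them.

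Ratios of counts between genes of this family within a library do not depend on how libraries are scaled. Because transcripts differ in length, such a ratio is read between stages and not as a ratio of molecules. The ITIH2 to ITIH4 ratio lay between 5.9 and 7.21 at GD100, between 3.58 and 5.82 at GD124 and between 1.34 and 2.32 at GD144. It was 2.93 times lower at GD144 than at GD124 (log2 -1.55). The ITIH2 to ITIH3 ratio lay between 0.963 and 1.75 at GD100, between 1.25 and 1.43 at GD124 and between 0.448 and 0.802 at GD144, which is 2.19 times lower at GD144 than at GD124 (log2 -1.13). For both ratios all 6 GD144 libraries lay below every earlier library. In exact two-sided permutation tests of GD144 against GD124 both gave p = 0.00216, the smallest that 462 arrangements allow, and an adjusted p of 0.0159 over the 30 tests made (10 pairs of genes in 3 comparisons). The tests of ratios were chosen after the values were seen.

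AMBP, which encodes bikunin and alpha-1-microglobulin in a single precursor, averaged 2814 ± 1669.7 CPM at GD100 (SD, n = 4), 5469.7 ± 231 CPM at GD124 (SD, n = 5) and 4669 ± 642 CPM at GD144 (SD, n = 6). It rose by log2 0.96 ± 0.29 between GD124 and GD100 (edgeR adjusted p = 0.0193), and GD144 did not differ from GD124 past the threshold (log2 -0.23 ± 0.26, edgeR adjusted p = 0.555). Relative to AMBP counts, ITIH4 was 2.27 times higher and ITIH3 1.69 times higher at GD144 than at GD124, each with an exact permutation p of 0.00216 (adjusted p = 0.0159). The ITIH1 to AMBP ratio did not differ past the threshold in any comparison (adjusted p of 0.308, 0.312 and 0.12 by exact permutation). ITIH2 relative to AMBP was 1.29 times lower at GD144 than at GD124 (exact permutation p = 0.0173, adjusted p = 0.0371), with adjusted p of 0.0317 to 0.0857 when single libraries were left out. Of the other partners, TNFAIP6, whose product transfers heavy chains to hyaluronan, had at most 3 counts in any library, at or under the floor. ITIH6, named after its values were seen, had 0 counts in all 15 libraries. Of the 5 tested partners (AMBP, ITIH5, HAS2, VCAN and CD44), 1 rose in each interval and 0 fell, where 16.6% of all tested genes were called higher in the earlier interval and 12.1% in the later one. ITIH5 was the one in the later interval, at 6.38 ± 2.77 CPM at GD144 (SD, n = 6) and 3.21 ± 0.838 CPM at GD124 (SD, n = 5).

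**Figure D3:**
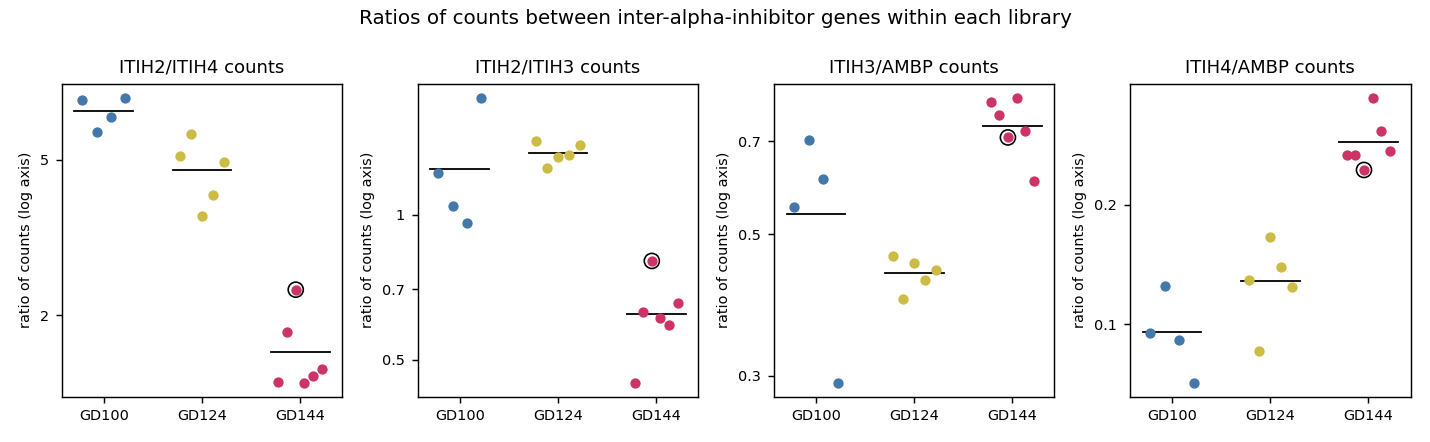
Ratio of counts of 2 genes within each library (log axis), by stage. Points are libraries, bars are stage means and the ring marks GD144 replicate 3. ITIH2 relative to ITIH4 or ITIH3 was lowest at GD144, where ITIH3 and ITIH4 relative to AMBP were above every GD124 library.

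The level of these genes was also set against other hepatocyte transcripts. The 9 hepatocyte markers had a median log2 fold change of 1.34 between GD124 and GD100 and of 0.21 between GD144 and GD124. Over the earlier interval the log2 fold change was 3.20 for CRP, 1.51 for ITIH4, 1.34 for AHSG, 1.14 for ITIH1, 0.94 for ITIH2 and 0.87 for ITIH3. With libraries scaled to the mean log2 level of these markers in place of TMM, a choice made after the values were seen, the median of all tested genes moved to -1.45. On that scale CRP still rose by log2 1.92 (edgeR adjusted p = 6.98e-05), and ITIH4 (0.20), AHSG (0.04) and ITIH1 (-0.04) did not pass the test. Between GD124 and GD100 this scaling called 72 of the 16977 tested genes higher and 13176 lower. Of the 9 genes 1 was called higher and 2 lower there. Between GD144 and GD100, 4 of the 9 were called higher and 3 lower, against 508 and 12130 of all tested genes. ITIH3 (-0.52, edgeR adjusted p = 0.0326) and HPX (-1.11, edgeR adjusted p = 7.59e-05) were lower at GD124 than at GD100, as most tested genes were. For GD144 against GD124 the same scaling left CRP, ORM1, LBP, ITIH3 and ITIH4 higher and put ITIH2 lower (log2 -0.55, edgeR adjusted p = 0.0239). Over all tested genes 956 were called higher and 1312 lower in that comparison.

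**Figure D4:**
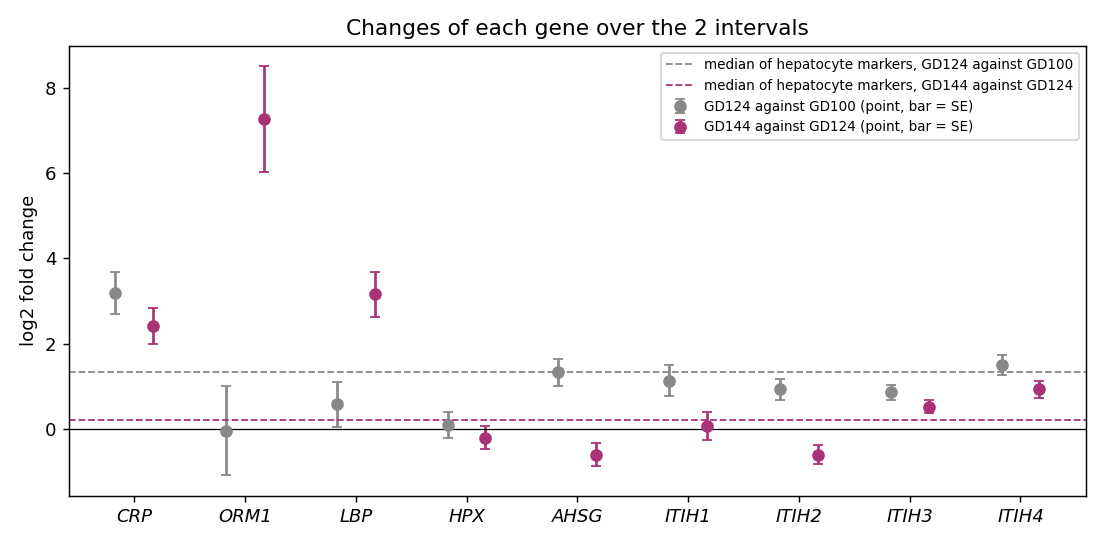
Log2 fold change of each gene over both intervals, with SE bars from edgeR. Dashed lines are the medians of the 9 hepatocyte markers, 1.34 and 0.21. CRP and ITIH4 lie above both lines, ITIH4 by less than its SE in the earlier interval. ORM1 and LBP moved in the later interval, and AHSG and ITIH2 have opposite signs in the 2 intervals.

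The spread between libraries of a stage differed widely among the 9 genes. At GD100 the SD of log2 CPM exceeded the median of all tested genes (0.40) for 8 of the 9. GD100 replicate 4 had the highest level of CRP, ORM1, AHSG, ITIH1, ITIH2, ITIH3 and ITIH4 in its stage, and it had the highest hepatocyte marker sum (76630 CPM, against 23175 to 55292 CPM in replicates 1 to 3). Its summed erythroid markers were 3561 CPM, against 3997 to 9226 CPM in the other GD100 libraries. The part of these cell types in the GD100 levels was not tested. At GD124 and GD144 the SD exceeded the median of all genes (0.30 and 0.31) for 4 of the 9. At GD124 it ran from 0.04 for ITIH3 to 1.49 for ORM1. At GD144 it was 0.62 for CRP, 0.26 for LBP and 3.31 for ORM1.

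The other genes of the acute phase response were taken from lists, chosen with earlier results of these data known. Of 21 other proteins known to rise in inflammation, 14 had a row and were tested. Between GD124 and GD100, 9 rose and 0 fell (16.6% of all tested genes were called higher and 17.4% lower), with a median log2 change of 1.29. Between GD144 and GD124, 3 rose and 1 fell (12.1% and 15.4% of all genes), with a median of 0.12. The fibrinogen chain FGB rose by log2 1.58 ± 0.26 in the earlier interval (edgeR adjusted p = 0.000501) and did not change past the threshold in the later one (-0.17 ± 0.23, edgeR adjusted p = 0.633). MBL2, a lectin that starts complement activation, behaved likewise, with log2 3.85 ± 0.52 and then -0.02 ± 0.40 (edgeR adjusted p = 0.000206 and 0.984). A2M, a broad protease inhibitor, rose in both, by log2 1.17 ± 0.30 and 1.30 ± 0.27 (edgeR adjusted p = 0.00677 and 0.00181). SERPINA1, the gene of alpha-1-antitrypsin, passed in neither (log2 0.74 ± 0.39 and -0.43 ± 0.35, edgeR adjusted p = 0.151 and 0.386). HAMP, the iron hormone hepcidin, was 2.65, 0.838, 1.64 and 6.72 CPM in GD100 replicates 1 to 4 and 3.98, 3.46, 5.81, 4.76 and 4.61 CPM in GD124 replicates 1 to 5. GD144 replicates 1 to 6 held 3.24, 4.04, 14.8, 13.7, 13.5 and 13.4 CPM. Replicates 1 and 2 of GD144 thus lay at the GD124 level and the other 4 above every earlier library. GD144 exceeded GD100 in HAMP by log2 1.82 ± 0.54 (edgeR adjusted p = 0.00994). LCN2, the iron-scavenging lipocalin 2 and the 1 gene of the list that fell between GD144 and GD124, is named after its values were seen. It fell by 1.92 ± 0.45 on the log2 scale (edgeR adjusted p = 0.00486), and 4 of the 8 tested neutrophil and granulocyte markers fell in the same comparison. Their part in this result was not tested.

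Genes listed as plasma proteins that fall in inflammation rose too in the earlier interval. Of 12 tested genes 10 rose and 0 fell between GD124 and GD100 (16.6% and 17.4% of all tested genes), with a median log2 change of 1.28. Between GD144 and GD124, 1 rose and 2 fell, near the shares over all tested genes (12.1% and 15.4%), with a median of -0.09. TTR, the thyroid hormone carrier transthyretin, rose by log2 1.11 ± 0.32 and then fell by 1.30 ± 0.29 on the log2 scale (edgeR adjusted p = 0.0153 and 0.00292). FETUB was the other gene of this list that fell. ALB rose by log2 1.34 ± 0.34 in the earlier interval (edgeR adjusted p = 0.00647) and stood at -0.09 ± 0.29 in the later one (edgeR adjusted p = 0.852). TF, the iron carrier transferrin, rose by log2 1.76 ± 0.41 in the earlier interval and stood at 0.87 ± 0.36 in the later one (edgeR adjusted p = 0.0041 and 0.0833). TTPA, the vitamin E transfer protein, was on this list although it works inside hepatocytes and not in plasma. It rose in both, by log2 1.25 ± 0.24 and 1.52 ± 0.22 (edgeR adjusted p = 0.00137 and 0.000131). It was the 1 gene of the list that rose in the later interval.

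Most genes listed for cytokine and steroid signalling to acute phase genes were higher later in gestation as well. The list also holds genes that restrain these signals, among them IL1RN, NFKBIA and SOCS3. Of 23 tested genes, 12 rose and 2 fell between GD124 and GD100 (16.6% and 17.4% of all tested genes), and 13 rose and 1 fell between GD144 and GD124 (12.1% and 15.4%). Over the whole span 18 rose and 2, JAK2 and RELA, fell, where 27.1% of all tested genes were called higher and 27.9% lower. IL6R, the interleukin-6 receptor, was 0 to 3.66 CPM at GD100, 5.25 to 22.7 CPM at GD124 and 25.1 to 60.1 CPM at GD144, with no overlap between the stages. GD144 exceeded GD100 in IL6R by log2 4.34 ± 0.74 (edgeR adjusted p = 0.000187). IL6ST, which encodes gp130, averaged 91.5 CPM at GD100 (n = 4, 83.4 to 116 CPM), 207 ± 23 CPM at GD124 (SD, n = 5) and 318 ± 35.1 CPM at GD144 (SD, n = 6), and rose in both intervals (edgeR adjusted p = 0.000129 and 0.00238). STAT3 rose by log2 0.61 ± 0.15 and 0.78 ± 0.14 (edgeR adjusted p = 0.00685 and 0.000601). SOCS3, which STAT3 induces and which restrains gp130, did not pass in any pairwise comparison (edgeR adjusted p = 0.1, 0.999 and 0.0645).

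CEBPB and CEBPD, the C/EBP factors of the acute phase response, rose in both intervals. CEBPB rose by log2 0.76 ± 0.25 and 1.33 ± 0.22 (edgeR adjusted p = 0.0247 and 0.00041). CEBPD rose by log2 0.78 ± 0.23 and 0.78 ± 0.20 (edgeR adjusted p = 0.0142 and 0.00876). NR3C1, the glucocorticoid receptor gene, rose by log2 0.57 ± 0.13 and 0.50 ± 0.12 (edgeR adjusted p = 0.00418 and 0.00553). IL1RN, a secreted antagonist of interleukin-1 that hepatocytes can make, stood at 4.85 to 18.9 CPM at GD100, 11.6 to 16.2 CPM at GD124 and 39.9 to 293 CPM at GD144. GD144 exceeded GD124 in IL1RN by log2 3.13 ± 0.50 (edgeR adjusted p = 0.00041). GD144 replicate 3, at 61.7 CPM, was within the range of the other 5. NFKBIA, an inhibitor of NF-kappa-B, is named after its values were seen. It was the 1 gene of this list called for the difference between the intervals, its later change being the larger. The log2 difference was 1.64 ± 0.39 (edgeR adjusted p = 0.0231), where 2.15% of all tested genes were called in that direction.

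**Figure D5:**
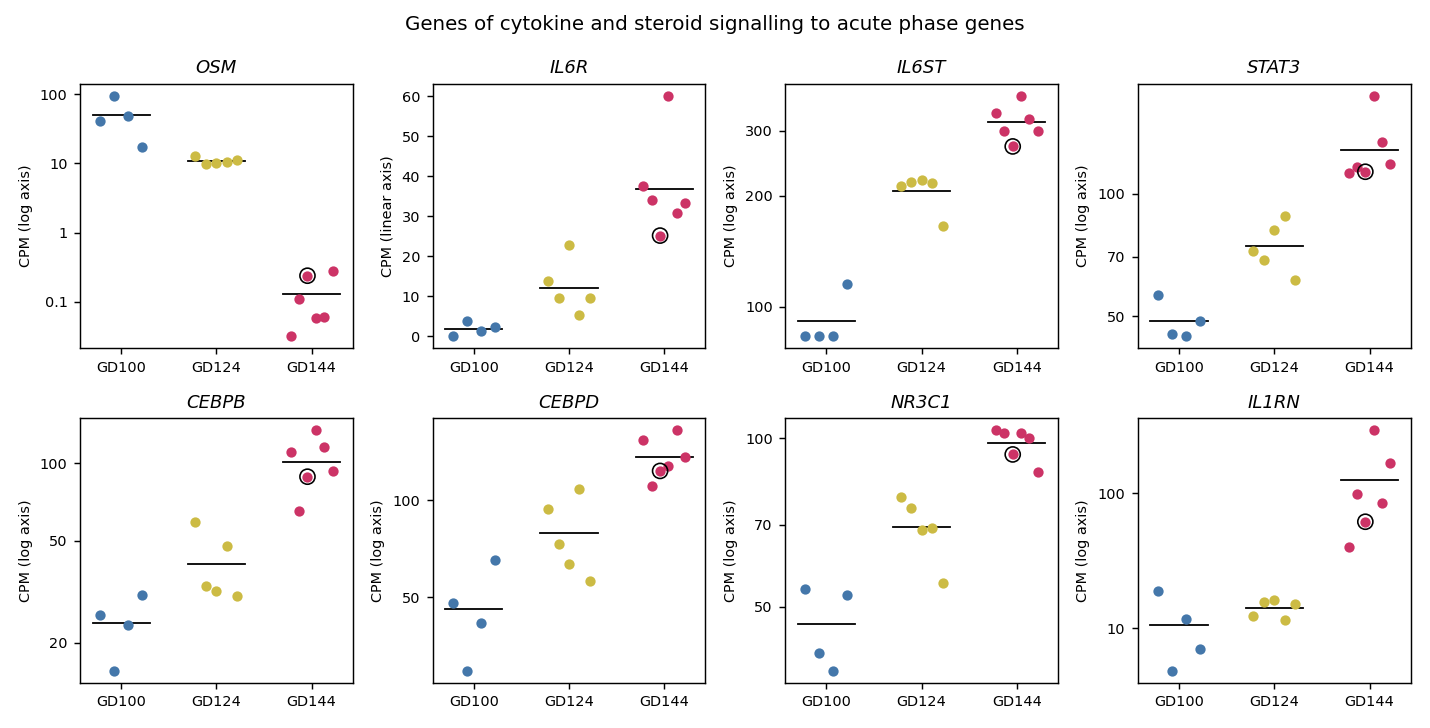
Level of 8 genes of cytokine and steroid signalling in every library (CPM; log axes except for IL6R, which has a library at 0). Points are libraries, bars are stage means and the ring marks GD144 replicate 3. OSM was lower and the receptor and transcription factor genes were higher at GD144.

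Most of the 9 cytokine genes were scarce at GD144, IL6 and OSM among them, and IL18 was not. TNF, LIF, IL1A, IL10 and IL11, named after their values were seen, reached at most 0.242, 0.45, 0.513, 0.584 and 1.1 CPM there. IL1B, named likewise, was 0.969 to 3.72 CPM at GD144. IL6, named after its values were seen, had at most 2 counts in any library and 0 in 13 of 15, under the floor at every stage. OSM, the gene of oncostatin M, which blood-forming cells of the fetal liver make in mice and which signals through gp130, was 17.4 to 95.3 CPM at GD100, 9.94 to 13 CPM at GD124 and 0.0321 to 0.277 CPM at GD144. The GD144 libraries had 1 to 9 counts of OSM each. The fall passed the test in both intervals (edgeR adjusted p = 0.000724 and 8.18e-07). IL18 was 2.62 to 6.34 CPM at GD100, 6.03 to 9.22 CPM at GD124 and 7.46 to 12.4 CPM at GD144. Of the 7 tested cytokine genes, 1 rose and 1 fell between GD124 and GD100 (16.6% and 17.4% of all tested genes), and 0 rose and 1 fell between GD144 and GD124 (12.1% and 15.4%). IL18 rose in the earlier interval (log2 0.80 ± 0.26, edgeR adjusted p = 0.0253) and OSM fell in both.

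Among 14 liver-enriched transcription factor genes, 5 rose and 0 fell between GD124 and GD100 (16.6% and 17.4% of all tested genes), and 6 rose and 2 fell between GD144 and GD124 (12.1% and 15.4%). HNF4A, a nuclear receptor that many plasma protein genes depend on, rose by log2 0.82 ± 0.18 and 0.69 ± 0.16 (edgeR adjusted p = 0.00291 and 0.00461). NFIL3 rose in both intervals (log2 0.72 ± 0.24 and 0.99 ± 0.22, edgeR adjusted p = 0.0317 and 0.00312). FOXA2 fell by 2.27 ± 0.26 on the log2 scale between GD144 and GD124 (edgeR adjusted p = 2.12e-05), with 3.4 ± 1.52 CPM at GD144 (SD, n = 6) and 16.4 ± 2.09 CPM at GD124 (SD, n = 5).

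Receptors and clearance partners of these plasma proteins rose in 8 of 12 tested cases and fell in 1 between GD124 and GD100, where 16.6% of all tested genes were called higher and 17.4% lower. They rose in 3 and fell in 1 between GD144 and GD124, where these shares were 12.1% and 15.4%. CD14, the receptor to which LBP hands lipopolysaccharide, was 1.95 to 5.86 CPM at GD100, 6.1 to 15.6 CPM at GD124 and 22.6 to 37.1 CPM at GD144. It rose in both intervals, by log2 1.52 ± 0.30 and 1.39 ± 0.26 (edgeR adjusted p = 0.00151 and 0.00102). TLR4, the signalling receptor for lipopolysaccharide, was 0.588 to 2.25 CPM at GD144 and 0.0946 to 0.352 CPM at GD100 (edgeR adjusted p = 0.000633). LY96, its partner, rose in the earlier interval alone (log2 1.60 ± 0.24 and -0.01 ± 0.20, edgeR adjusted p = 0.000277 and 0.973). LRP1, which takes up hemopexin with haem, rose in both intervals (log2 0.58 ± 0.21 and 0.64 ± 0.19, edgeR adjusted p = 0.0386 and 0.017). HMOX1, which breaks haem down, rose in the earlier interval (log2 0.87 ± 0.25, edgeR adjusted p = 0.0144). ASGR2, a subunit of the receptor that clears desialylated plasma proteins, rose by log2 1.06 ± 0.23 in the earlier interval (edgeR adjusted p = 0.00278). BLVRB, a biliverdin reductase gene that red cell precursors express strongly, fell in both, by 1.54 ± 0.34 and 2.21 ± 0.31 on the log2 scale (edgeR adjusted p = 0.00285 and 0.000113).

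Summed RNA levels of markers of several cell types moved over the same stages. Summed markers of 8 Kupffer cell and macrophage genes, which include none of these plasma proteins, were 89.8 to 359 CPM at GD100, 316 to 528 CPM at GD124 and 388 to 688 CPM at GD144. Summed erythroid markers were 3561 to 9226 CPM at GD100, 1348 to 2850.4 CPM at GD124 and 6.91 to 674 CPM at GD144. Of the 9 erythroid markers, 1 was called lower between GD124 and GD100, where 17.4% of all tested genes were. Between GD144 and GD124 all 9 were called lower, where 15.4% of all tested genes were. Summed markers of 8 neutrophil and granulocyte genes were 53.9 to 88.9 CPM at GD100, 32.5 to 128 CPM at GD124 and 1.11 to 39.3 CPM at GD144. Summed endothelial markers (7 genes) were 205 to 351 CPM at GD100, 261 to 493 CPM at GD124 and 486 to 714 CPM at GD144. Between GD144 and GD124, 6 of the 7 rose, where 12.1% of all tested genes were called higher. Summed megakaryocyte and platelet markers (7 genes) were 196 to 238 CPM at GD100, 52.5 to 102 CPM at GD124 and 131 to 196 CPM at GD144, with all GD124 libraries below those of both other stages. Of these, 1 rose and 6 fell between GD144 and GD124 (12.1% and 15.4% of all tested genes). The sum and most of its genes thus moved in opposite directions. The part of these cell types in the levels of the acute phase genes was not tested.

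For each of the 9 genes the nearest profiles were sought among 8926 other tested genes with a mean of at least 10 CPM, by Pearson's r of log2 CPM over all 15 libraries. As the stage moves most of these genes, r describes likeness of profile here and has no test. HPX and its nearest genes, DBI and APOA2, passed in no pairwise comparison of stages. CRP was nearest to ERLIN1 and ABLIM3 (r = 0.98 for both), ITIH4 to FN1, the fibronectin gene (0.99), and to LOC780510 (0.98), and ITIH3 to PDE3B and LOC101110740 (0.98 for both). LBP was nearest to TAPT1 (0.96) and B3GALT5 (0.95), and ITIH1 to XBP1, a regulator of secretory capacity (0.96), and to ALB (0.95). AHSG was nearest to CXADR (0.96) and SELENOI (0.95), ITIH2 to C2H2orf72 (0.94) and CTNNAL1 (0.93), and HPX to DBI (0.97) and APOA2 (0.89). ORM1 was nearest to DDR1 (0.93) and SLC43A1 (0.91). ORM1 in GD144 replicate 3 entered the choice of both genes, so their levels in that library are a description. In it both were below the other 5 GD144 libraries, DDR1 at 14.9 CPM, against 30.2 to 43.9 CPM, and SLC43A1 at 31.6 CPM, against 37.2 to 43.6 CPM. IL6R, IL6ST, SOCS3, LY96, HNF4A, ITIH5, ABLIM3, SLC43A1, DBI, APOA2, CTNNAL1, CXADR and LOC101110740 overlap another gene in the annotation, and without stated strand their values are uncertain.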

How the data were processed

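The authors deposited a table of estimated counts of reads per gene for 15 poly(A) libraries, not normalized. DRAGEN is named in the submitters' processing notes. The DRAGEN version, build, gene models and strand setting used are not stated here. Fractions occurred in 6.55% of the values, which were rounded before the fits. The closest replicates of a stage gave a chi-square per degree of freedom of 43.7 over genes with at least 20 counts. No replicate thus differed from another of its stage by counting error alone. This cannot tell whether libraries came from the same fetus.

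All 15 libraries entered a single model with the stage as factor, tested by quasi-likelihood in edgeR 4.0.16 (R 4.3.3) with TMM, robust estimation and filterByExpr, which left 16977 genes. It gave 3 pairwise comparisons and the difference between the intervals, and p-values were adjusted by Benjamini-Hochberg over all tested genes. A standard error is the size of the log2 change divided by the square root of F. CPM use TMM factors, and log2 CPM a prior count of 2. Ratios of counts were compared by exact two-sided permutation. The ratio tests and the scaling to hepatocyte markers were chosen after seeing the data. The procedure was tested on simulated counts with the same spread at all stages and changes at GD144 alone. The spread of these data differs between stages, so the simulation checks the running of the fits only. Alternatives were other scalings and filters, DESeq2 1.42.0, other sets of libraries and a replicate block.

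Named besides the 9 genes were 23 fixed genes, up to 2 called rises and 2 called falls per list over GD144 against GD100 at 5 CPM or more, and the 2 nearest profiles per gene. APCS and CD163 had no row and are not analysed here, nor are SAA1, SAA2, SAA3, SAA4 and SERPINA3. The genes and lists were chosen with earlier results of these data known. Gene overlaps and neighbours come from the RefSeq annotation of assembly ARS-UI_Ramb_v3.0, which may not be that of the table.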

Additional observations from a re-analysis of the deposited data

Results flagged for a closer look

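Single libraries lay far from the rest of their stage in 13 of the 132 combinations of gene and stage examined (44 genes). For independent, normally distributed values the rule would flag about 1 in 20, and these CPM need be neither. The rule did not flag ORM1 in GD144 replicate 3 (3.29 CPM, against 469 to 1310.0 CPM), because the other GD144 libraries also spread widely. HPX was 1117 CPM in GD124 replicate 3, against 1402 to 1473 CPM in the other GD124 libraries, and AHSG was 69776 CPM in GD100 replicate 4, against 26408 to 33078 CPM. ALB was 46331 CPM in GD144 replicate 1, against 67768 to 73932 CPM. GD144 replicate 4 was apart for FETUB at 858 CPM (the others 1346 to 1445 CPM), IL6R at 60.1 CPM (25.1 to 37.6 CPM), STAT3 at 174 CPM (113 to 134 CPM) and LRP1 at 324 CPM (166 to 218 CPM). IL6ST was 116 CPM in GD100 replicate 4 (the others 83.4 to 83.6 CPM) and 166 CPM in GD124 replicate 5 (213 to 221 CPM), and SOCS3 was 13.8 CPM in GD100 replicate 3 (10.8 to 11.1 CPM). GD144 replicate 1 was apart for FOXA2 at 6.25 CPM (the others 1.99 to 3.58 CPM) and IL18 at 12.4 CPM (7.46 to 8.12 CPM), and GD144 replicate 3 for BLVRB at 74.5 CPM (21.7 to 30.9 CPM).

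The change of GD144 against GD124 differed from that of GD124 against GD100 by edgeR's test of the difference for ITIH2 (log2 -1.53, adjusted p = 0.0326), AHSG (-1.93, 0.0299), FGB (-1.75, 0.0209), TTR (-2.41, 0.0135), FETUB (-2.79, 0.000465), LY96 (-1.61, 0.0185), MBL2 (-3.86, 0.00887), FOXA2 (-2.39, 0.00857), OSM (-4.15, 0.00579) and NFKBIA (1.64, 0.0231). Of these 10 differences 9 are negative, the later change being the lower one, where 3.75% of all tested genes were called so and 2.15% the other way. The value for OSM depends on the prior count, since its GD144 libraries hold 1 to 9 counts.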

How the results depend on the processing

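Over 26 alternatives, 828 of 927 values for the 9 genes kept their direction and side of the threshold, 47 lost a call, 23 gained one and 29 changed sign; the cause was not tested. Reversed values were, with total counts alone, HPX -0.052 for GD124 against GD100, and with the replicate block ITIH1 -0.10 for GD144 against GD124. With GD100 replicate 1 as the lone GD100 library, assumed to vary like the others, they were ORM1 0.17, HPX -0.52 and LBP -0.21 for GD124 against GD100 and HPX 0.34 for the difference between the intervals. Without both GD100 replicate 1 and GD144 replicate 3, HPX was 0.075 for GD144 against GD100. Scaled to hepatocyte markers, HPX (-1.11), ITIH1 (-0.038), ITIH2 (-0.33), ITIH3 (-0.52) and LBP (-0.58) reversed for GD124 against GD100, ITIH2 (-0.88) and AHSG (-0.49) for GD144 against GD100, and CRP (0.54), HPX (0.96), ITIH1 (0.14), ITIH3 (1.12) and ITIH4 (0.79) for the difference between the intervals. Leaving out single libraries, HPX ran from -0.18 to 0.37 (GD124 against GD100), -0.34 to 0.18 (GD144 against GD100) and -0.56 to 0.02 (interval difference; -0.67 without both libraries named above), ORM1 from -0.45 to 0.79 (GD124 against GD100), ITIH1 from -0.11 to 0.23 (GD144 against GD124), and the ITIH1 to ITIH3 ratio from -0.21 to 0.30 (log2, GD144 against GD100).

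The 9 genes held 5 to 6 calls (GD124 against GD100), 5 to 7 (GD144 against GD124), 6 to 8 (GD144 against GD100) and 0 to 3 (interval difference) when single libraries were left out. Scaled to hepatocyte markers, they held 1 call higher and 2 lower (GD124 against GD100; 6 and 0 with TMM), 5 and 1 (GD144 against GD124; 5 and 0), 4 and 3 (GD144 against GD100; 7 and 0) and 4 and 0 (interval difference; 0 and 2), that is 3, 6, 7 and 4 calls. All genes gave 5774, 4663, 9342 and 1002 calls. Without single libraries these were 4169 to 6234, 3724 to 5051, 8546 to 9321 and 379 to 1743. GD100 replicate 1 alone left 3167 calls for GD124 against GD100. Scaling to hepatocyte markers gave 13248 (GD124 against GD100), 2268 (GD144 against GD124), 12638 (GD144 against GD100) and 9130 (interval difference). Of these calls, 72, 956, 508 and 9033 were higher and 13176, 1312, 12130 and 97 lower. DESeq2 called 1816 genes and 4 of the 9 for the interval difference, and 1603 genes were called without both GD100 replicate 1 and GD144 replicate 3. For GD144 against GD124, DESeq2 called 5 of the 9 higher and 2 lower. ITIH2 and AHSG, both lower, were the calls gained in that comparison, also when single libraries were left out. Total counts alone moved the median of all genes from 0.02 to -0.16 for GD124 against GD100.

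No sign was seen that the replicate numbers of the labels pair the libraries, although such a check cannot show that pairing is absent. Deviations of same-numbered libraries correlated at -0.15 to 0.14 over 13 pairs, and 2 of 15 libraries matched best with their own number. With the replicate block 325 genes and 0 of the 9 were called for the interval difference, ITIH3 lost its call for GD144 against GD124 (adjusted p = 0.0877), and 4544, 3306 and 8259 genes were called in the pairwise comparisons. ORM1, at under 12 CPM before GD144, is the least precise of the 9 genes.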
